A study of Homo sapiens with 4 samples.

Results

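The genes that encode the proteins of the cytosolic ribosome were examined in HGC-27, a human cell line from a poorly differentiated gastric cancer. Members were taken by symbol: RPL or RPS followed by a number, with an A or X at the end where there is one, together with RPLP0, RPLP1, RPLP2 and RPSA. This rule found 77 genes, 46 of the large and 31 of the small subunit, among 25559 symbols, and all 77 had enough counts to be tested. RNA-seq of polyA RNA was available from 2 libraries of control cells, labelled wildtype, and 2 libraries of RUNX3 KO cells, in which Cas9 and a guide against RUNX3, a transcription factor of the Runt domain family, had been delivered by a lentiviral vector before single-cell cloning. The number of clones, and whether replicates were separate cultures, are not given in the sources used here, so p-values measure the spread between these libraries, which may be technical, and the effect of the knockout and that of cloning cannot be told apart. The study's methods and the sample labels name different media and RNA kits for these cells.

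Each ribosome consists of a large subunit, which joins amino acids, and a small subunit, which reads the mRNA. Nearly every ribosomal protein is present as a single copy per ribosome, while the acidic stalk proteins RPLP1 and RPLP2 are carried as dimers on RPLP0. Mammalian ribosomal protein mRNAs typically open with a pyrimidine tract, the 5′ terminal oligopyrimidine (TOP) motif, through which mTORC1 and LARP1 control their translation, and RPS6 is the classical substrate of S6 kinase.

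Gene rows held 11731401 to 12110876 counts per library. Reads that were assigned to no gene, including ambiguous and not uniquely aligned ones, accounted for 27.8% and 28.1% of the control libraries' counts, against 26.2% and 25.9% for RUNX3 KO. RUNX3 itself had 351 and 308 counts in control and 225 and 185 in RUNX3 KO libraries, which is -0.70 on the log2 scale and was not called without RUNX3 KO replicate 2, and a count over the whole gene does not show whether the coding sequence is cut. The study itself reports an immunoblot without RUNX3 protein in its HGC-27 RUNX3 KO cells, and a check of the mRNA by RT-qPCR. Of 10 markers of a gastric or epithelial origin, KRT19, CLDN18, MUC5AC, TFF1, TFF2 and GKN1 had 0 counts in all libraries. That sets a limit of 3 counts per library. EPCAM had at most 1, and CDH1, KRT8 and KRT18 had between 0 and 81. VIM had 33828 to 57834 counts, and the fibroblast marker COL1A1 8010 to 15098. These libraries thus lacked most defining markers of the labelled origin. Endothelial PECAM1 and hepatocyte ALB had 0 counts, and leukocyte PTPRC had at most 5. The fibroblast marker PDGFRB had 95 and 82 counts in control and 44 and 31 in RUNX3 KO libraries. VIM, COL1A1 and PDGFRB were lower in RUNX3 KO cells (log2 fold changes of -0.75, -0.87 and -1.25) and the few counts of KRT8 and CDH1 higher (2.33 and 0.77, the latter not called in 5 of the 14 alternatives, among them those without control replicate 1 and without either RUNX3 KO library), and their part in the results below was not tested.

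The starts of the genes that moved most are shown first, since the TOP motif lies there. Each run covers 15 bases before and 15 bases from the start of the annotated principal transcript (hg19, GENCODE), read 5′ to 3′ on the strand of the gene, with the TOP tract in capitals where a C at the start is followed by pyrimidines to a length of at least 5.
RPS6, chr9:19380220-19380249, minus strand: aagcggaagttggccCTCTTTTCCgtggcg
RPL37, chr5:40835310-40835339, minus strand: tagcggaagtgccttCTCTTCCggtctttc
RPLP1, chr15:69745142-69745171, plus strand: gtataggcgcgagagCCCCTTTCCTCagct
RPL12, chr9:130213671-130213700, minus strand: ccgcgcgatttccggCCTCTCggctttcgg
RPS29, chr14:50053084-50053113, minus strand: tgcgtgggccagcttCTTCCTTTTacctcg
RPL4, chr15:66797179-66797208, minus strand: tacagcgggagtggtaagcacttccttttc
RPS28, chr19:8386365-8386394, plus strand: tccccgaagcacgtgactcctctccgccag
The tract was 9 bases long in RPS6 and RPS29, 7 in RPL37, 11 in RPLP1 and 6 in RPL12, whereas the annotated starts of RPL4 and RPS28 did not open with one. Genes that rose and genes that fell in RUNX3 KO cells are found on both sides of that division. Over all members, 58 of 77 (75.3%) had a TOP tract at the annotated start, against 4.59% of 19894 promoters of the annotation.

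The members as a family changed little. With edgeR's quasi-likelihood test and Benjamini-Hochberg adjustment over 12967 genes, 29 of the 77 fell and 11 rose upon RUNX3 KO at an adjusted p under 0.05, and 37 were not called. Over all tested genes, 24.4% were lower and 24.5% higher. Among the members the shares were 37.7% and 14.3%. The median log2 fold change of the members was -0.03, beside -0.0021 for all tested genes. Within 0.3 of 0 lay 73 of 77 members (94.8%), among them 38 of the 40 called ones, beside 66.5% of all genes. Apart from 4 members with few counts, the lowest count of a member was 1394. The filter for all genes had a minimum count of 10, and low counts widen the spread of fold changes. This share, and that for the 2-fold criterion below, thus do not compare genes of like level. Genes matched to the members by level were not examined. By the study's criterion of a fold change of at least 2 with an unadjusted p of at most 0.05, edgeR called 0 members, where 6.12% of all genes passed; 43 members (55.8%) had an unadjusted p under 0.05 in this test, beside 54.2% of all genes, and 35 with DESeq2 and 45 with limma-voom, beside 36.2% and 54.0% of all genes. The number of calls depended on both RUNX3 KO libraries: 11 members were lower and 5 higher without RUNX3 KO replicate 1, and 9 and 4 without replicate 2, where the single library left was assumed to vary like the control libraries. Over all genes, 11.6% were then lower and 11.2% higher, and 10.4% and 9.70%, so that the calls fell in number among all genes too. Without control replicate 2, 1 member passed the 2-fold criterion.

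**Figure D1:**
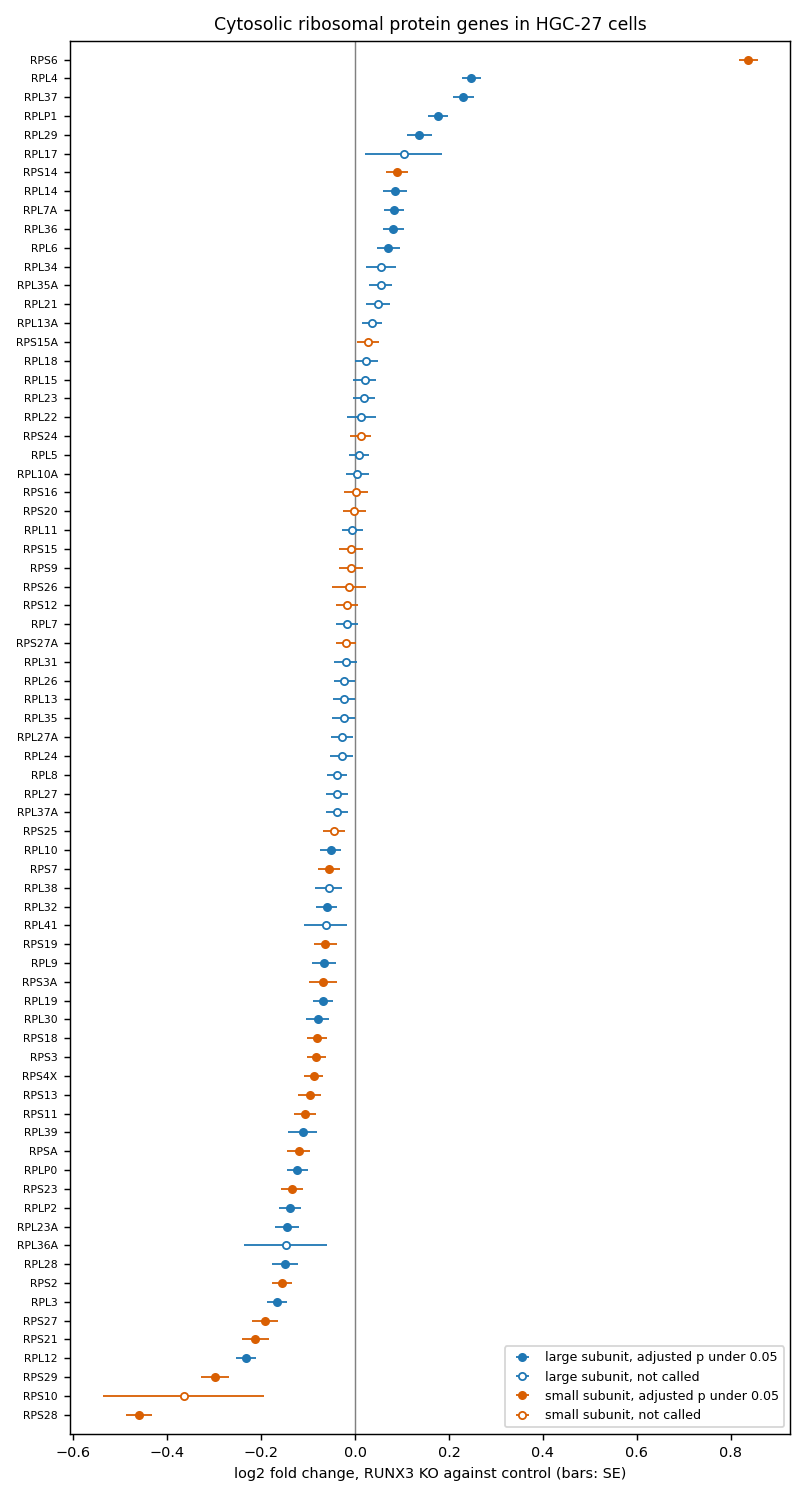
Log2 fold change of 73 of the 77 ribosomal protein genes (vertical axis) in RUNX3 KO against control cells, with SE as bars; filled points passed an adjusted p under 0.05 in edgeR's test. RPS6, at 0.84, stands apart from the other called members, which lie between -0.46 and 0.25.

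Ribosomal protein mRNAs took up 6.57% and 6.71% of the gene counts of control cells, against 6.55% and 6.49% of those of RUNX3 KO cells. The difference of the means, -0.115 percentage points, had the size of the gap between the control libraries, and it was 0.0407 with all rows of the tables as the denominator, which includes the unassigned reads. Without RPS6 the difference was -0.232 points. In bulk RNA, fewer cells with a transcript and less of it per cell cannot be told apart. Between replicates, the chi-square of the counts per gene was 5.9 in control and 2.43 in RUNX3 KO libraries over the members, against 1.22 and 1.18 over all genes, so that replicates of these abundant mRNAs differed by more than counting error. Between the groups it was 81.3 and 95.3 over the members and 17.1 and 17.3 over all genes, for libraries of the same number.

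RPS6, the small subunit protein that S6 kinase phosphorylates, had by far the strongest change of a called member. Control cells had 17989 and 18088 counts, against 31988 and 33055 in RUNX3 KO cells. The groups did not overlap, and each group was tight. In CPM, which divides counts by the library total after TMM scaling, its level went from 1528 ± 6.38 to 2730 ± 27.8 (SD, n = 2 each), a 1.79-fold rise or 0.84 on the log2 scale with an SE of 0.0204 (edgeR's adjusted p 2.39e-55). RPS6 made up 2.33% and 2.30% of all member counts in control and 4.10% and 4.20% in RUNX3 KO libraries, and moved from rank 9 to rank 1 among the members by counts. Relative to RPS3, another small subunit protein, its counts per coding length were 0.662 and 0.647 in control and 1.23 and 1.24 in RUNX3 KO libraries. The value ranged from 0.82 to 0.85 over all alternatives, and the call was kept in each of them.

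The genes around RPS6 on chromosome 9 were higher as well. RPS6 lies at chr9:19375713-19380234 on the minus strand. Of the 40 nearest tested genes outside the family, which span 26.1 Mb, 34 had a positive log2 fold change, their median was 0.82, and 17 were at or above the value of RPS6. The neighbour DENND4C, a Rab exchange factor, was higher by 0.83 (edgeR's adjusted p 7.23e-19), while ACER2, on the other side, had a value of 0.31 that was not called (adjusted p 0.584). RPS6 itself differed from the median of its neighbours by 0.02.

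RPL4, RPL37, RPLP1, RPL29 and RPS14 followed among the members that rose. RPL4, a core protein of the large subunit, had 20891 and 21221 counts in control and 25185 and 25256 in RUNX3 KO libraries. RPL37, which contacts the rRNA of the large subunit, had 11706 and 11979 against 14065 and 13969. RPLP1, the stalk protein, had 15551 and 15742 against 17581 and 18122. In all 3 genes each RUNX3 KO library was above both control libraries. The log2 fold changes were 0.25 (SE 0.0205), 0.23 (SE 0.0224) and 0.18 (SE 0.0213), and edgeR gave them adjusted p values of 8.32e-19, 1.94e-15 and 1.33e-11. RPL29, a large subunit protein, rose by 0.14 and RPS14, a small subunit protein, by 0.09 on the log2 scale. The call for RPL29 was lost without RUNX3 KO replicate 2 (largest adjusted p 0.0725 over the alternatives), and that for RPS14 without either RUNX3 KO library (largest adjusted p 0.0851). RPL14, RPL7A, RPL36 and RPL6 also rose, at 0.07 to 0.09, and these calls, too, were lost without either RUNX3 KO library. Those for RPL14 and RPL6 were lost as well without control replicate 1 and with DESeq2, and that for RPL6 with library size alone, with upper-quartile scaling and with no filter on low counts.

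RPS28 had the lowest value of all members. This protein of the small subunit had 5644 and 5695 counts in control and 4188 and 4124 in RUNX3 KO libraries. All control values lay above all RUNX3 KO values. The level went from 480 ± 3.2 to 349 ± 8.34 CPM (SD, n = 2 each), which is -0.46 on the log2 scale with an SE of 0.0275 (edgeR's adjusted p 4.44e-27). RPS29, a zinc-binding small subunit protein, had 4653 and 4912 counts in control and 3999 and 3848 in RUNX3 KO libraries. RPL12, a large subunit protein at the base of the stalk, had 17130 and 17308 against 14691 and 14881. Again there was no overlap between the groups. Their log2 fold changes were -0.30 and -0.23, and the calls were kept in all alternatives. RPS21 and RPS27, also of the small subunit, fell by 0.21 and 0.19 on the log2 scale. The call for RPS21 was lost without either RUNX3 KO library (largest adjusted p 0.0598).

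**Figure D2:**
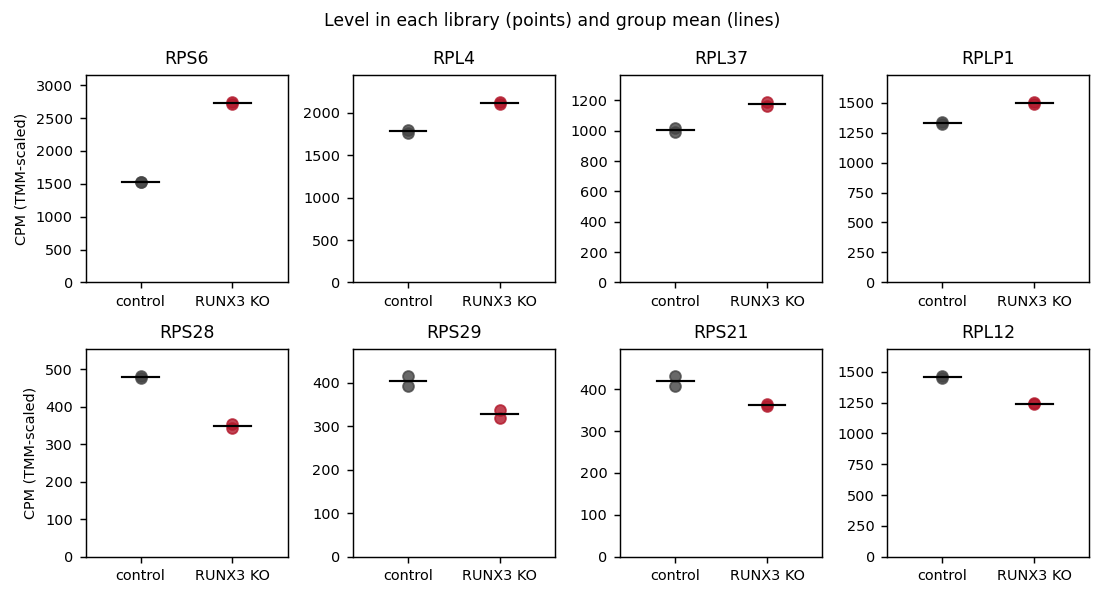
Level of 8 members in each library (points) with the group mean (lines), in CPM of the TMM-scaled library, for control and RUNX3 KO cells with 2 libraries each. RPS6, RPL4, RPL37 and RPLP1 were higher in both RUNX3 KO libraries, and RPS28, RPS29, RPS21 and RPL12 were lower in both.

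The stalk proteins moved in different directions. RPLP0, which anchors the stalk, fell by 0.12, RPLP2 fell by 0.14 and RPLP1 rose by 0.18 on the log2 scale. Per coding length, the ratio of RPLP1 to RPLP2 counts was 1.58 and 1.68 in control cells, against 1.99 and 2.07 in RUNX3 KO cells. The calls for RPLP0 and RPLP2 were lost without either RUNX3 KO library, with largest adjusted p of 0.136 and 0.12, while that for RPLP1 was kept throughout.

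RPL5 and RPL11, which bind the 5S RNA and, like RPL23, can bind the p53 ligase MDM2, stayed within 0.02 of 0 and were not called. RPL5 had 18671 and 19197 counts in control and 19097 and 19350 in RUNX3 KO libraries, a log2 fold change of 0.01 (SE 0.021). RPL11 had 12400 and 12715 against 12535 and 12696, a log2 fold change of -0.01 (SE 0.0223), and RPL23 a log2 fold change of 0.02 (SE 0.0234). The groups overlapped for all 3, and leaving out a library moved RPL5 between -0.01 and 0.03, RPL11 between -0.02 and 0.01 and RPL23 between -0.01 and 0.05. The ratio of RPL5 to RPL11 counts per coding length was 0.902 and 0.905 in control and 0.913 in both RUNX3 KO libraries.

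Of the other members of known role, RPL3, which lies near the peptidyl transferase centre, fell by 0.17. RPSA, also known as the laminin receptor, fell by 0.12, and RPS19, the gene most often mutated in Diamond-Blackfan anaemia, by 0.06 on the log2 scale. Of the 4 members on the X chromosome, RPL39, RPS4X and RPL10 fell by 0.11, 0.09 and 0.05, and RPL36A had -0.15 without being called. RPL22 (0.01), RPS27A, which is made as a fusion with ubiquitin (-0.02), and RPL41, the smallest ribosomal protein (-0.06), were not called. RPL41 and RPS27A turned on single libraries: without control replicate 1 they were called lower (-0.17 and -0.05), and without control replicate 2 they had 0.06 and 0.01. RPL41 had -0.15 and 0.02 without RUNX3 KO replicate 1 and 2, and RPL22 had -0.02 and 0.05 without control replicate 1 and 2. Without either RUNX3 KO library the calls for RPSA, RPS4X, RPS19, RPL39 and RPL10 were lost. Those for RPS19, RPL39 and RPL10 were also lost without control replicate 2, with no filter on low counts and with DESeq2, and that for RPL10 with the replicate number as a block.

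The small subunit had 16 of 31 members lower and 3 higher (median log2 fold change -0.06), and the large subunit 13 of 46 lower and 8 higher (median -0.02). All 46 large subunit members lay within 0.3 of 0, as did 27 of the 31 small subunit members. RPS6, RPS10 and RPS28 were among those outside it. Of 29 members with an annotated small nucleolar RNA gene inside their bounds, 16 were lower and 4 higher (median -0.06), against 13 and 7 of the 48 without one (median -0.02). Members with a TOP tract at the annotated start (20 lower and 9 higher of 58, median -0.03) and without one (9 and 2 of 19, median -0.04) had similar medians. These differences between sets of members were not tested.

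Levels per length spanned a wide range. In mean CPM per kb of coding sequence over the 4 libraries, the median member stood at 1746, RPLP1, RPL37 and RPS18, a small subunit protein, were highest at 4129, 3746 and 3585, and RPS10 and RPL17 were among the lowest at 12.6 and 53.01. RPS18 fell by 0.08 on the log2 scale, a call lost without either RUNX3 KO library. The low levels have limits in the counting. The table also lists RPS10-NUDT3 and RPL36A-HNRNPH2, readthrough symbols that share exons with members, each at 0 counts in all libraries. Reads in shared exons can be set aside as ambiguous, a row that held 0.877% to 0.923% of counts per library. The 0 counts thus do not show that these members lost no reads. About 9% of all counts were reads without a unique alignment (8.95% to 9.07% per library), and the family has many processed pseudogenes, of which 27 symbols held about 0.003% to 0.004% of the gene counts, so the levels of members with close copies are uncertain. RPS10 had 89 and 77 against 69 and 61 counts, or -0.37 on the log2 scale with an SE of 0.172 (edgeR's adjusted p 0.0704), and RPL17 had 356 and 310 against 366 and 356, or 0.10 on the log2 scale (edgeR's adjusted p 0.309), which was 0.21 without control replicate 1 and 0.0051 without control replicate 2. Neither was called, and with so few counts changes of that size could not be resolved.

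The position of a member went along with its value. Each member's log2 fold change was set beside the median over its 40 nearest tested genes outside the family, 20 on each side where the chromosome allowed. Over the 77 members Pearson's r was 0.703 and Spearman's rho 0.438, and without RPS6, the member with the highest value, 0.550 and 0.415 over 76. The points share libraries, and nearby members share neighbours, so this is a description across genes. Of the 40 called members, 30 had the sign of their neighbours' median, 9 of 11 that rose and 21 of 29 that fell. The same share and correlation were not computed over all tested genes. These values therefore do not show that the pattern is particular to the family. On chromosome 15 the neighbours of RPL4 and RPLP1 had medians of 0.26 and 0.23, beside 0.25 and 0.18 for the genes themselves. The median was -0.31 around RPS28 on chromosome 19 and -0.26 around RPS29 on chromosome 14.

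Other members went their own way. RPL12 (-0.23), RPS21 (-0.21) and RPS27 (-0.19) lay among neighbours whose medians were -0.05, 0.01 and -0.01. RPS2, a small subunit protein, fell by 0.16 among neighbours with a median of 0.17. RPL3 on chromosome 22 fell by 0.17 where its neighbours' median was -0.53, and 37 of those 40 genes were at or below it. The part of chromosomal position in these values was not tested.

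**Figure D3:**
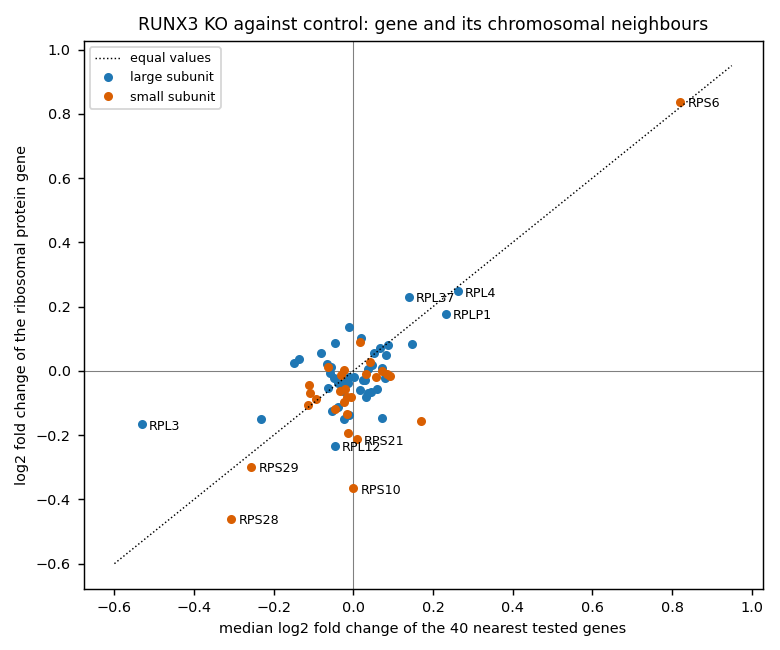
Log2 fold change of 73 ribosomal protein genes (vertical axis) against the median of the 40 nearest tested genes outside the family, fewer at chromosome ends (horizontal axis), RUNX3 KO against control; the dotted line marks equal values. RPS6 (0.84 beside 0.82) and RPL4 (0.25 beside 0.26) lie near the line, and RPL3 (-0.17 beside -0.53) lies off it.

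The promoters were searched for exact matches to short motifs in the 250 bases before the annotated start, on both strands. The RUNX hexamer TGTGGT was present in 11 members (14.3%), against 8.82% of the 19894 promoters. The ETS hexamer CGGAAG was present in 44 (57.1% against 21.8%), the E-box CACGTG in 5.19% (7.87%), the YY1 motif ATGGCGG in 1.30% (3.08%) and the TATA box TATAAA in 7.79% (9.25%). Windows around the RUNX hexamer are shown for the called members and for RPL11 and RPS27A, since RUNX3 is the gene that was targeted, read on the strand of the gene with the hexamer or its reverse complement in capitals.
RPL4, chr15:66797270-66797299, minus strand: ttacttttgtagTGTGGTagagagatattt
RPS21, chr20:60962070-60962099, plus strand: gcgcagactcgcTGTGGTggcgtgacccgg
RPS29, chr14:50053247-50053276, minus strand: agcactagaagcTGTGGTatggtgacgtca
RPS29, chr14:50053167-50053196, minus strand: cgaaacaacctgACCACActgcgcacgcgt
RPS3A, chr4:152020530-152020548, plus strand: aACCACAggtaaccagacg
RPS3A, chr4:152020637-152020666, plus strand: ggcgatgtcgcaACCACAgtagaaagagtg
RPS18, chr6:33239711-33239740, plus strand: cgcaccggaagtTGTGGTacccaagccata
RPL11, chr1:24018218-24018247, plus strand: cgtcttcatctcTGTGGTtagcctgggaaa
RPS27A, chr2:55459741-55459770, plus strand: tcaggcatttggTGTGGTcgcctaaggggt
With -1 as the base before the start, the hexamer began at -94 in RPL4, -77 in RPS21, -166 and -86 in RPS29, -249 and -131 in RPS3A, -129 in RPS18, -66 in RPL11 and -71 in RPS27A. RPS3A, of the small subunit, fell by 0.07 on the log2 scale, a call lost in 9 of the 14 alternatives, among them those without control replicate 2 (0.0019) and without either RUNX3 KO library. Of the 11 members with it, 4 were lower and 1, RPL4, was higher (median log2 fold change -0.04), and of the 66 without it 25 were lower and 10 higher (median -0.03). Genes with the hexamer that rose, that fell and that were not called, such as RPL11 and RPS27A, were thus all seen. A match of letters is not a binding site, and RPS6 and RPS28 had no match in this window.

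Genes related to the members by sequence rose or fell with no common direction. The paralogs RPL22L1, RPS27L and RPL26L1 rose by 0.25, 0.26 and 0.44 on the log2 scale, while the parent gene RPL22 was not called, RPS27 fell, and RPL26 was not called (-0.02). RPS27L on chromosome 15 lay among neighbours with a median of 0.28, and those of RPL22L1 and RPL26L1 had medians of 0.05 and 0.07. RPL36AL fell by 0.17 on chromosome 14, where its neighbours had a median of -0.26, and RPL7L1 had 0.10 without being called (neighbours -0.04). FAU, which encodes RPS30 fused to a ubiquitin-like protein and so belongs to the ribosome although the naming rule leaves it out, fell by 0.17 (neighbours -0.04). RPL39L, RPL10L and RPL3L had at most 4 counts in any library and were not tested. The calls for RPL22L1, RPS27L and RPL36AL were lost without either RUNX3 KO library, that for RPS27L also without control replicate 1, with no filter on low counts and with DESeq2, and that for RPL36AL also without control replicate 2 and with no filter.

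Genes that assemble ribosomes and those of the mitochondrial ribosome were counted in the same test, in which 24.4% of all genes were lower and 24.5% higher. Of 123 genes of ribosome assembly and rRNA processing, 82 (66.7%) were higher and 9 (7.32%) lower, and the median was 0.16 on the log2 scale. Of 75 tested mitochondrial ribosomal protein genes, 53 (70.7%) were higher and 4 (5.33%) lower, with a median of 0.20, and of 16 genes of RNA polymerase I and its factors 9 were higher and 1 lower, with a median of 0.14. The medians of their neighbours' medians were 0.02, 0.01 and 0.01. With DESeq2, 31 mitochondrial ribosomal protein genes were higher, and 14.1% of all genes. Without RUNX3 KO replicate 1 or replicate 2, these lists had fewer calls, and calls also fell in number over all genes. In each of these lists more genes were still called higher than lower. The difference between these lists and the cytosolic ribosomal protein genes was not tested.

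RCL1, a factor of rRNA processing on chromosome 9, rose by 1.21 among neighbours with a median of 0.88, and MRPL46 and MRPS11, adjacent on chromosome 15, rose by 1.08 and 0.65 among neighbours with medians of 0.52. EMG1, an rRNA methyltransferase on chromosome 12, rose by 0.64 among neighbours with a median of 0.05. On the lower side, PES1, of the PeBoW complex of large subunit assembly, fell by 0.38 on chromosome 22 (neighbours -0.58), MRPL4 fell by 0.41 on chromosome 19 (neighbours -0.36), MRPL52 by 0.34 on chromosome 14 (neighbours -0.35), and RIOK2, a kinase of small subunit maturation, by 0.29 on chromosome 5 (neighbours -0.0042). Of the RNA polymerase I list, POLR1C and CD3EAP, both subunits, rose by 0.42 and 0.37, UBTF, which binds the rDNA, fell by 0.14, and TAF1C had -0.11 without being called. The medians of their neighbours were 0.01, 0.04, -0.01 and 0.05. The calls for CD3EAP and POLR1C were lost without RUNX3 KO replicate 2, and those for RIOK2 and UBTF without either RUNX3 KO library.

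**Figure D4:**
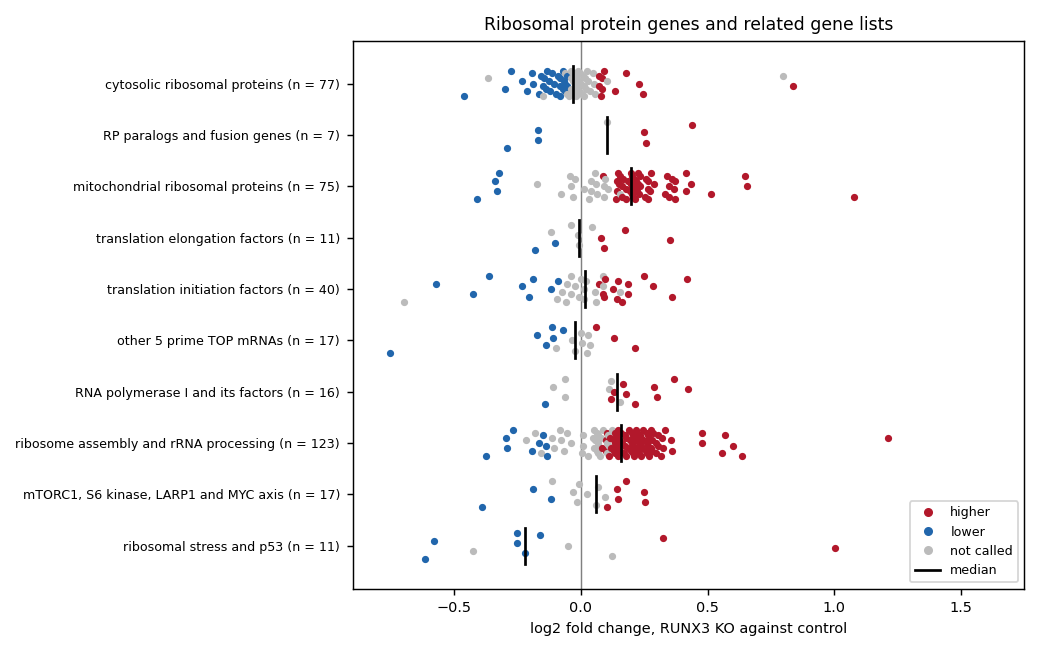
Log2 fold change of the 77 cytosolic ribosomal protein genes and of the tested genes of 9 related lists (one point per gene, the number tested in brackets), RUNX3 KO against control, coloured by edgeR's call at an adjusted p under 0.05, with the median of each list as a black line. The medians of the mitochondrial ribosomal protein list (0.20) and the assembly list (0.16) lie to the right of 0, and that of the cytosolic ribosomal proteins (-0.03) near it.

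The factors that work with the ribosome were mixed. In the same test, 24.4% of all genes were lower and 24.5% higher. The shares were 20% and 35% for initiation factors, 18.2% and 36.4% for the elongation list, and 35.3% and 17.6% for other TOP genes. Of 40 translation initiation factor genes, 14 were higher and 8 lower (median 0.02), with EIF3J and the cap-binding EIF4E up by 0.42 and 0.36, the eIF3 subunit EIF3L down (-0.57, among neighbours on chromosome 22 with a median of -0.46), and EIF4E3 at -0.70 without being called. The neighbours of EIF3J on chromosome 15 had a median of 0.22, with 33 of 40 above 0, and those of EIF4E and EIF4E3 had medians of 0.05 and -0.02. Of 11 genes grouped by symbol as elongation factors, not all of which encode such a factor, 4 were higher and 2 lower (median -0.01). EEF1E1 and EEF1A2 rose by 0.35 and 0.18, EEF1D fell by 0.18, and EIF5A2 had -0.12 without being called, among neighbours with medians of -0.04, 0.02, 0.01 and 0.07. Of 17 other genes with TOP mRNAs, 6 were lower and 3 higher (median -0.02). VIM fell by 0.75 and SNHG12 by 0.17 on the log2 scale, and SNHG8 and NPM1 rose by 0.21 and 0.13. The neighbours of VIM on chromosome 10 had a median of -0.33, with 36 of 40 below 0, and those of SNHG12, SNHG8 and NPM1 had medians of 0.04, -0.12 and 0.06.

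Of 17 genes of mTORC1, S6 kinase, LARP1 and MYC, 6 (35.3%) were higher and 3 (17.6%) lower (median 0.06). Over all genes, 24.5% were higher and 24.4% lower. LARP4 and the mTOR partner MLST8 rose by 0.25 each, while the MYC partner MAX fell by 0.39 and the translation repressor EIF4EBP2 by 0.19. The neighbours of MAX on chromosome 14 had a median of -0.22, with 34 of 40 below 0, and those of LARP4, MLST8 and EIF4EBP2 had medians of -0.05, 0.14 and 0.03. Of 11 genes of ribosomal stress and p53, 6 (54.5%) were lower and 2 (18.2%) higher (median -0.22), beside the same shares of all genes. CDKN1A, the cell cycle inhibitor induced by p53, fell by 0.61 and MDM4, an inhibitor of p53, by 0.58, among neighbours with medians of 0.08 and -0.16. CDKN2A rose by 1.00 on chromosome 9 among neighbours with a median of 0.72, and SESN1 rose by 0.33, a call lost in 12 of the 14 alternatives, among neighbours with a median of -0.04. Without RUNX3 KO replicate 1 or 2, these 5 lists had fewer calls, and calls also fell in number over all genes. Among the genes named from these lists, the calls for EIF4E, EEF1E1, EEF1A2, SNHG12, SNHG8, NPM1 and MLST8 were lost without either RUNX3 KO library, and that for EIF4EBP2 without replicate 2. The calls for EEF1A2, SNHG8 and SNHG12 were also lost with DESeq2, those for SNHG8 and SNHG12 without control replicate 2, and that for SNHG12 without control replicate 1 and with no filter on low counts.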

How the data were processed

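PolyA RNA of HGC-27 cells was sequenced by the authors (2 control and 2 RUNX3 KO libraries), and the deposited values are raw counts of reads per gene symbol, not normalized. The submitters' processing notes name bcl2fastq, HISAT2 2.1.0, HTSeq and hg19, whereas the methods name STAR and featureCounts; the strand setting is not given in the sources used here. The 5 closing rows for reads not assigned to a gene (25.9% to 28.1% of counts) were left out. Groups came from the genotype labels.

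The test was run in edgeR 4.0.16 (R 4.3.3): filterByExpr (minimum count 10, minimum total 15), TMM, the quasi-likelihood test and Benjamini-Hochberg adjustment over 12967 genes. With 2 against 2 libraries an exact permutation test of a single value cannot go below p = 0.333, so only the fit across genes was used. Levels are CPM, as mean ± SD. The steps were tested on simulated data. Of the symbols, 21767 were matched to the GENCODE annotation on GRCh37, all 77 members included; promoter letters were read from that genome.

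The members and gene lists were chosen with earlier results of these data known. Named genes were the 8 lowest and 8 highest members, 18 members of known role, the 3 highest and 3 lowest per length, paralogs and fusion genes, and the 2 lowest and 2 highest genes of each list; others were named after their values were seen. Alternatives were DESeq2 1.42.0 size factors and test, library size, upper-quartile scaling, TMM without the members, edgeR's exact test, limma-voom (limma 3.58.1), no filter, 10 counts in every library, a replicate block and each library left out. The share without RPS6 and the neighbourhood medians were added after seeing the data. Some genes that the naming rule selects are not reported here by name or drawn in the plots of single genes, and they stay in all counts and medians.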

Additional observations from a re-analysis of the deposited data

How the results depend on the processing

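None of the 40 member calls turned into a call in the other direction under the 14 alternatives, and 30 to 40 were kept with other scalings, tests and filters. DESeq2's test gave 21 members lower and 9 higher, beside 14.4% and 14.1% of all genes. The log2 fold change of RPS3A, called lower, ranged from -0.1365 to 0.0019 with single libraries left out, and was 0.0019 and not called without control replicate 2. Leaving out each library in turn gave 9 to 37 members lower, 4 to 15 higher, 0 to 1 past the 2-fold criterion and a median log2 fold change from -0.0525 to -0.0168. The members' median was -0.0487 with library size alone and -0.0495 with upper-quartile scaling, which shifted all genes to -0.0221 and -0.0228. The share of counts on members differed by 0.0407 percentage points over all rows of the tables and by -0.232 without RPS6.

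With library size alone and with upper-quartile scaling, 3 genes of RNA polymerase I were lower, 3 of the mTORC1 list higher and 1 of the p53 list higher. Over all genes, 26.6% and 26.5% were then lower, and 22.2% and 22% higher. Without a filter, 3 of the mTORC1 list and 1 of the p53 list were higher, beside 13.9% of all genes. With 10 counts in every library, edgeR's exact test, limma-voom and the replicate block, 1 of the p53 list was higher. Over all genes, 24.2% to 24.4% were higher in those settings. DESeq2's test gave 31 mitochondrial ribosomal protein genes higher, 3 other TOP genes lower and 1 higher, 3 of the mTORC1 list higher, and 3 of the p53 list lower and 1 higher.

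Leaving out each library gave, for genes higher, 19 to 48 for mitochondrial ribosomal proteins, 43 to 75 for ribosome assembly, 2 to 10 for RNA polymerase I, 1 to 3 for paralogs and fusion genes, 5 to 15 for initiation, 0 to 4 for elongation, 0 to 3 for other TOP genes, 2 to 5 for the mTORC1 list and 1 for the p53 list. For genes lower it gave 4 to 13 for ribosome assembly, 0 to 1 for RNA polymerase I, 4 to 9 for initiation, 1 to 2 for elongation, 1 to 5 for other TOP genes, 1 to 3 for the mTORC1 list and 2 to 6 for the p53 list. Member calls kept were 37 and 33 without a control library and 16 and 13 without a RUNX3 KO library, with as many libraries left; the causes of these shifts were not tested.

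The correlation of replicate differences between the groups was -0.00507 over 10869 genes, so no pairing of libraries by replicate number was seen. Replicates differed by little more than counting error over all genes (chi-square per gene 1.22 and 1.18). A weak pairing could therefore go unseen in this correlation. With the replicate block, 27 members were lower and 11 higher, and 38 calls were kept.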
